A study of Mus musculus with 12 samples.

Results

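The translation initiation factor genes of mouse were followed in tumours that grew in hosts with or without an intact copy of Trex1, which encodes a cytosolic DNA exonuclease. The members were the protein-coding genes whose symbol is Eif followed by a digit, without the 4 eIF2 alpha kinases Eif2ak1 to Eif2ak4 and without the Y-linked Eif2s3y, which left 50 of the 54532 genes of the count table. Initiation is the step of protein synthesis at which the small ribosomal subunit is loaded with initiator tRNA, recruited to the capped end of an mRNA and moved to the start codon, where the large subunit joins. It is the step that growth signals and stress most often control, through eIF4E and its repressors on one side and through phosphorylation of eIF2 alpha on the other. Melanoma cells, like other fast-growing cells, are known for a high demand on it.

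The tumours arose from wild-type B16F10, a pigmented melanoma line of mouse, mixed with Matrigel and injected intradermally into each leg of male hosts 8 to 12 weeks old. Hosts of the 6 Ctrl libraries were Trex1 wt/fl and hosts of the 6 iKO libraries Trex1 fl/fl, and all carried R26CreERT2-ki/wt, a tamoxifen-activated Cre recombinase at the Rosa26 locus, which is active in most cell types. Tamoxifen, 1 mg daily on 3 successive days, was given to every host starting on day 5, so the Ctrl hosts had a tamoxifen-activated Cre and a floxed allele too, and tumours were taken on day 14. The question is what a host without Trex1 does to the RNA of a tumour whose implanted cells keep the gene. Digested tumours were sorted with antibodies to CD45 (leukocytes) and CD31 (endothelium): the label asks for absence of both, whereas the protocol can be read as absence of either. The labels also name a single-cell source, but the table has 1 column per tumour library and was analysed as bulk RNA. Libraries are not tied to mice in the labels, so p-values measure only the spread between these libraries, and a mouse may have given more than 1. In bulk RNA, fewer cells of a type and less RNA per cell cannot be told apart.

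Libraries held 29.8 to 45.8 M counts. Trex1 was listed at 0 counts in all 12 libraries, so it could not check the labels. Markers of other cells moved with the groups. Of 10 leukocyte markers 9 rose in iKO (summed level 302 to 512 CPM in Ctrl and 456 to 2409 in iKO), as did 8 of 8 T cell markers (3.66 to 8.08 against 13.8 to 149 CPM), 8 of 8 macrophage and monocyte markers (13.3 to 204 against 151 to 1413 CPM), 3 of 6 endothelial (37.9 to 45.5 against 35.96 to 83.7 CPM), 2 of 8 fibroblast (2279 to 2602 against 635 to 14737 CPM) and 4 of 4 tested keratinocyte markers (3.31 to 5.57 against 7.79 to 158 CPM). The iKO libraries thus spread widely in fibroblast RNA, to either side of Ctrl. Several T cell markers, such as Cd3e and Cd8a, were at 0 in at least 1 Ctrl library, and the keratin Krt1 was at 0 in every Ctrl library. Of 8 melanocyte and melanoma cell markers 7 fell (22671 to 23059 CPM summed in Ctrl, 15728 to 22575 in iKO), so the labelled melanoma identity was present throughout. The labels give male hosts, but iKO 2 and iKO 3 had 6869 and 4124 counts of Xist, which marks a silenced X chromosome, against 2 to 247 in the other libraries, which goes against that label. The Y-linked Eif2s3y had 0 counts in iKO 3 and 21 in iKO 2, against 64, 426, 264 and 411 in iKO 1, 4, 5 and 6. The Ctrl libraries had 16 to 56. Counts without both libraries are given below. Ctrl 5 and iKO 1 stood apart from their groups. Their leukocyte scores (mean log2 CPM of the leukocyte list) were 4.67 and 4.42, against 0.96 to 2.37 in the other Ctrl and 6.87 to 7.66 in the other iKO libraries. The part of these shifts in the results below was not tested except where a fit with such a score as covariate is given.

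Initiation factor transcripts were slightly lower in the tumours of iKO hosts, across nearly every step of the pathway. Of the 48 members that passed the filter on low counts, 28 fell and 2 rose (edgeR quasi-likelihood test, adjusted p below 0.05), while 16 of the 18 members without a call also had values below 0. Among all 16164 tested genes 21.4% fell and 25.0% rose, and the median log2 fold change was 0.02, against -0.19 for the members. The members are well expressed, and a second background was therefore drawn after the values were seen: of 7968 protein-coding genes with a mean of at least 20 CPM, 32.8% fell and 26.3% rose, against 28 and 2 of 47 members. The falls were small. Their median was -0.26 on the log2 scale, or -16.2%, and the largest was -0.38, or -23.0%, whereas all genes that fell had a median of -0.37. In 11 of the 48 members (22.9%) every iKO library lay below every Ctrl library, against 11.1% of all tested genes. In 1 (2.08%), Eif4g3, every iKO library lay above, against 11.8% of all tested genes. Together the members held 1.46% of all counts in Ctrl and 1.27% in iKO. Eif4e1b, a germ-line relative of eIF4E, and Eif4ebp3, an eIF4E repressor, did not pass the filter. Eif4e1b had 7 counts in Ctrl 4 and 0 elsewhere, and Eif4ebp3 had 0 to 22 counts per library.

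**Figure D1:**
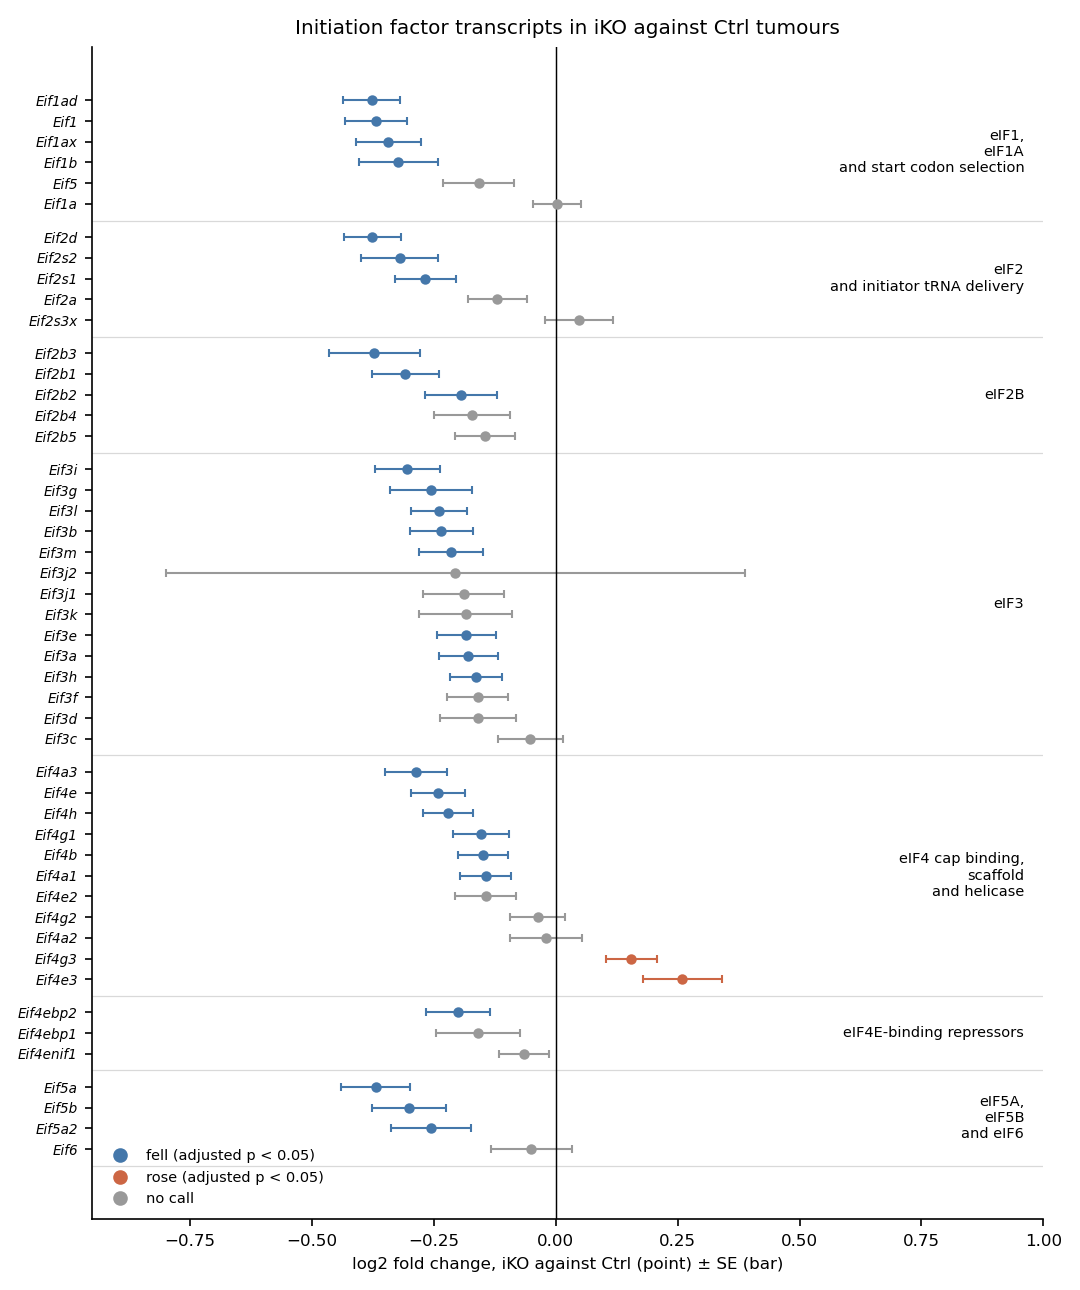
Log2 fold change of iKO against Ctrl (horizontal axis, point ± SE) for the 48 tested initiation factor genes, grouped by role (vertical axis). Blue points fell, orange points rose and grey points have no call (edgeR, 6 libraries a group); nearly all points lie between -0.38 and 0, with Eif4e3 and Eif4g3 on the other side and a wide bar for Eif3j2.

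The calls of many smaller falls were lost when a library was left out, in each case for more than 1 choice of library. In fits that left out 1 of the 12 libraries at a time, 17 of the 28 falls were called in all 12 fits and 11 lost their call in at least 1. The count of falls was lowest, 18, without Ctrl 4, where 16.1% of all tested genes fell. Without iKO 2 and iKO 3, whose counts of Xist go against the label male, 23 members fell and 1 rose, Eif4e3. Of all tested genes 18.0% fell and 21.6% rose in that fit. Without Ctrl 5 and iKO 1, 26 members fell and 2 rose, while 20.3% of all tested genes fell and 27.0% rose. With the leukocyte score as a covariate, 11 members fell, 8 of them among the 28, and Eif2s3x rose, while 6.64% of all tested genes fell and 6.14% rose. In that fit the median of the members was -0.26, and SEs were wider, for example 0.13 in place of 0.06 for Eif1; the score and the group largely run together. With a melanoma cell score as covariate, added after the values were seen, no member passed in edgeR (6 were lower and 0 higher at an unadjusted p below 0.05), the median was -0.13, and 298 genes of the whole table fell and 478 rose.

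Seen by library, the shift was present in each iKO tumour. The median deviation of the 48 members from their Ctrl mean was -0.17, -0.26, -0.12, -0.32, -0.24 and -0.10 on the log2 scale in iKO 1 to 6, and between -0.05 and 0.09 in the Ctrl libraries. All 6 iKO medians lay below all 6 Ctrl medians. Among the iKO libraries, iKO 4 and iKO 2 had the lowest melanoma scores, 10.15 and 10.22, and the lowest medians. The other iKO libraries had scores of 10.32 to 10.67, and their medians did not follow the same order. iKO 3 and iKO 5 had nearly equal scores, 10.32 and 10.33, and medians of -0.12 and -0.24, and iKO 1 had the highest score but not the highest median. A link between score and median was not tested. Ctrl 5, with the highest leukocyte score of the Ctrl libraries, had the highest median (0.09). Its level was the highest of its group for 25 of the 48 members and the lowest for 10. iKO 1 had a similar leukocyte score and a melanoma score of 10.67, against 10.68 to 10.73 in Ctrl, and its median was -0.17. iKO 6 had a leukocyte score of 7.47 and the median closest to Ctrl among the iKO libraries.

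**Figure D2:**
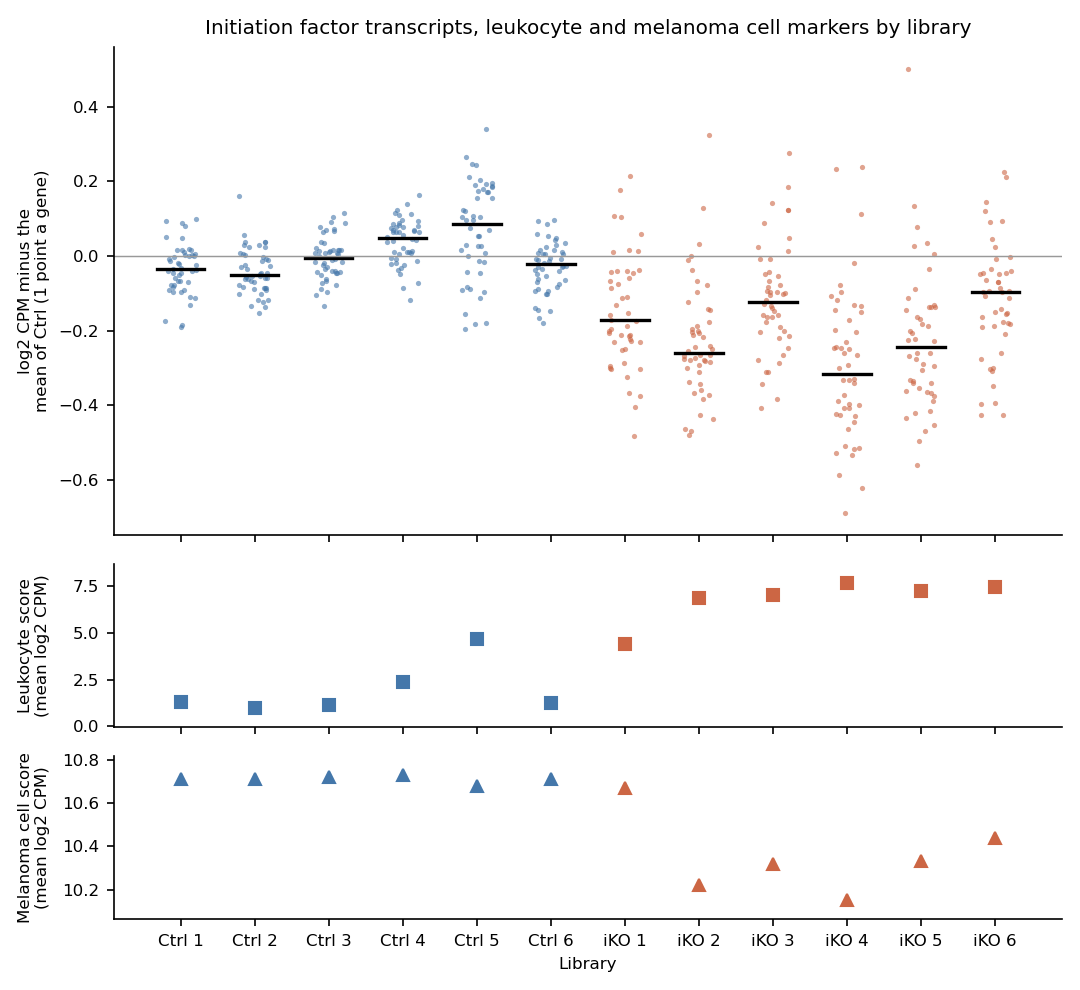
Upper panel: log2 CPM of each tested member minus its Ctrl mean (vertical axis) in each library (horizontal axis), with a bar at the median; Eif3j2, which varied widely, enters the bars but is not drawn as points. Lower panels: leukocyte and melanoma cell scores (mean log2 CPM of each list); iKO medians run from -0.32 to -0.10 and Ctrl medians from -0.05 to 0.09, while Ctrl 5 and iKO 1 have leukocyte scores between those of the other libraries.

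Of the 6 genes of start codon selection 4 fell. For this group and the groups by role that follow, 21.4% of all tested genes fell and 25.0% rose. Of protein-coding genes with a mean of at least 20 CPM, 32.8% fell and 26.3% rose. Differences between the groups by role were not tested. eIF1 and eIF1A keep the scanning ribosome open until it meets an AUG, and eIF5 then triggers GTP hydrolysis by eIF2. Eif1 (chromosome 11, 100319885 to 100322096, mm10) ran from 603 to 739 CPM in Ctrl (median 644) and from 476 to 566 in iKO (median 502), where CPM are counts per M of library total, with totals scaled by TMM. The groups did not overlap, and the log2 fold change was -0.37 ± 0.06 (SE, n = 6 libraries a group; edgeR, adjusted p = 0.000416). Eif1ad, a nuclear protein with an eIF1A-like domain, went from a median of 63.5 CPM (58.4 to 72.3) to 49.4 (46.4 to 52.6), again without overlap, with a log2 fold change of -0.38 ± 0.06 (adjusted p = 0.000221). Of its exon bases 15.3% overlap Banf1 on the opposite strand, and the libraries did not keep strand.

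The X-linked Eif1ax and the autosomal Eif1a, which encode near-identical eIF1A proteins, differed. Eif1ax ran from 88.2 to 100.7 CPM in Ctrl and from 63.5 to 83.7 in iKO, a fold change of -0.34 ± 0.07 on the log2 scale (edgeR, adjusted p = 0.000980). Eif1a ran from 117 to 129 CPM in Ctrl and from 115 to 133 in iKO, and its log2 fold change was 0.00 ± 0.05 (adjusted p = 0.981). Reads shared by such close copies could be split between them by the counting, and the difference between the 2 genes was not tested. Eif1b, a relative of Eif1, went from a median of 56.8 CPM (55.4 to 70.2) to 46.1 (42.3 to 54.0), a log2 fold change of -0.32 ± 0.08 (adjusted p = 0.00511), and 12.7% of its exon bases overlap D830035M03Rik. Eif5 had 507 to 554 CPM in Ctrl and 408 to 577 in iKO, and its log2 fold change of -0.16 ± 0.07 missed the threshold (adjusted p = 0.0913). Eif5 was called in 1 of the 12 fits without 1 library, that without iKO 1 (edgeR, adjusted p = 0.00839). In the other fits the adjusted p reached 0.233. Its log2 fold change was 0.12 ± 0.13 with the leukocyte score and 0.004 ± 0.12 with the melanoma score as covariate, with no call in either.

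eIF2 carries the initiator tRNA, and 2 of its 3 subunits fell. Eif2s1, the alpha subunit that the stress kinases phosphorylate, ran from 203 to 223 CPM in Ctrl and from 162 to 206 in iKO, a fold change of -0.27 ± 0.06 on the log2 scale (edgeR, adjusted p = 0.00319). Eif2s2, the beta subunit, ran from 342 to 395 CPM in Ctrl and from 259 to 360 in iKO (-0.32 ± 0.08, adjusted p = 0.00462). In both genes the highest iKO library lay within the Ctrl range. The gamma subunit gene Eif2s3x had 127 to 161 CPM in Ctrl and 133 to 163 in iKO, a log2 fold change of 0.05 ± 0.07 (adjusted p = 0.608), and 0.04 ± 0.08 without iKO 2 and iKO 3. With the leukocyte score as covariate its log2 fold change was 0.40 ± 0.12 (edgeR, adjusted p = 0.0449). Its Y-linked copy Eif2s3y, left out of the members, had 16 to 56 counts in Ctrl libraries and 0 to 426 in iKO libraries, with 0 in iKO 3.

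Eif2d, which encodes an alternative carrier of initiator tRNA that acts without GTP, went from a median of 60.7 CPM (59.3 to 65.1) to 48.2 (42.3 to 51.3). The groups did not overlap, and its log2 fold change was -0.38 ± 0.06 (edgeR, adjusted p = 0.000192), the smallest adjusted p among the members. Eif2a, another alternative carrier and not a subunit of eIF2, had a log2 fold change of -0.12 ± 0.06 (adjusted p = 0.124). eIF2B is the exchange factor that reloads eIF2 with GTP and is blocked by phosphorylated eIF2. Of its 5 subunit genes 3 fell. Eif2b1 (alpha) ran from 61.4 to 67.0 CPM in Ctrl and from 44.5 to 59.7 in iKO, without overlap, with a log2 fold change of -0.31 ± 0.07 (adjusted p = 0.00228). Eif2b3 (gamma) went from a median of 27.6 to 21.9 CPM (-0.37 ± 0.09, adjusted p = 0.00487), with groups that overlapped. Eif2b2 (beta), the most abundant of the 5 per length, changed by -0.19 ± 0.07 (adjusted p = 0.0426). Its call was lost without Ctrl 2, 3, 4 or 5 or iKO 1, 3, 4 or 5, with adjusted p up to 0.155, and without Ctrl 5 and iKO 1 together (0.174). Eif2b4 and Eif2b5 changed by -0.17 ± 0.08 and -0.15 ± 0.06, with no call (adjusted p = 0.0856 and 0.0670), although Eif2b4 passed without Ctrl 1 or 6 and Eif2b5 without iKO 3 or 6.

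eIF3 is the large scaffold that binds the small subunit and receives the mRNA. Of its 14 genes 8 fell, none rose, and the median log2 fold change was -0.19. Eif3i, a WD-repeat subunit, ran from 140 to 169 CPM in Ctrl and from 104 to 137 in iKO, without overlap (-0.30 ± 0.07, edgeR, adjusted p = 0.00217). Eif3b, the scaffold that holds Eif3i and Eif3g, ran from 478 to 534 CPM in Ctrl and from 393 to 485 in iKO (-0.23 ± 0.06, adjusted p = 0.00864), with iKO values reaching into the Ctrl range. Eif3g, an RNA-binding subunit, changed by -0.26 ± 0.08 (adjusted p = 0.0218), a call lost without Ctrl 4 or 5 (adjusted p up to 0.0772) and without Ctrl 5 and iKO 1 together (0.0739). Eif3l, of the octamer, went from a median of 280.0 CPM (272 to 293) to 247 (216 to 256), without overlap (-0.24 ± 0.06, adjusted p = 0.00352). When the subunits were grouped by their place in the complex, a grouping chosen after the values were seen, the 8 octamer genes (a, c, e, f, h, k, l, m) had a median of -0.18 with 5 falls, and the b, g and i genes a median of -0.26 with 3 falls. The difference between these sets was not tested, and their values overlapped.

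Other eIF3 genes moved less. Eif3h, the most abundant per length by the table's gene length, ran from 313 to 357 CPM in Ctrl and from 276 to 318 in iKO (-0.16 ± 0.05, edgeR, adjusted p = 0.0225), and its call was lost without Ctrl 2, 3, 4 or 5 (adjusted p up to 0.0798). The octamer genes Eif3a and Eif3e and the PCI-domain gene Eif3m changed by -0.18, -0.18 and -0.21. Eif3a was at 0.03 ± 0.12 with the leukocyte score as covariate and Eif3m at 0.0002 ± 0.10 with the melanoma score, neither with a call. Their calls were lost without Ctrl 2, 3 or 4 or iKO 2, 4 or 5 for Eif3a (adjusted p up to 0.0938), without Ctrl 2 to 5 for Eif3e (up to 0.103) and without Ctrl 4 or 5 for Eif3m (up to 0.0640). Eif3c, one of the core octamer subunits, had 592 to 605 CPM in Ctrl and 521 to 645 in iKO, for a fold change on the log2 scale of -0.05 ± 0.07 (adjusted p = 0.556). Eif3j2 varied most, from 3.47 to 17.7 CPM in Ctrl and from 2.38 to 17.6 in iKO, and is a close copy of Eif3j1, so reads may be shared between them. Of the exon bases of Eif3d, 43.3% overlap Gm17638 on the opposite strand, and its log2 fold change of -0.16 ± 0.08 had no call.

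At the cap, the main factors fell while a paralog of the cap-binding protein and a paralog of the scaffold rose. eIF4E binds the cap, eIF4G holds the complex together and eIF4A unwinds the mRNA with the help of eIF4B and eIF4H. Of 11 tested genes 6 fell and 2 rose. Eif4e (chromosome 3, 138526179 to 138559696) ran from 164.0 to 187 CPM in Ctrl and from 140 to 164.2 in iKO, a fold change of -0.24 ± 0.06 on the log2 scale (edgeR, adjusted p = 0.00306), with only the edges of the groups touching. Eif4e3 (chromosome 6, 99625135 to 99666771), an atypical cap-binding protein that does not engage eIF4G as eIF4E does, had 38.4, 39.2, 38.8, 42.4, 49.0 and 38.1 CPM in Ctrl 1 to 6 and 47.3, 51.1, 46.4, 44.1, 57.7 and 47.7 CPM in iKO 1 to 6. Ctrl 5, the Ctrl library with the most leukocyte RNA, was the only Ctrl library inside the iKO range. The log2 fold change was 0.26 ± 0.08 (adjusted p = 0.0167), and -0.03 ± 0.15 with the leukocyte score as covariate (edgeR, adjusted p = 0.918). Of its exon bases 14.8% are shared with Gm20696 on the same strand. Eif4e2, the cap-binding protein 4EHP, changed by -0.14 ± 0.06 (adjusted p = 0.0729) and passed without Ctrl 1 (0.0420).

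Among the scaffold genes Eif4g1 fell and Eif4g3 rose, both with calls that depended on the fit. Eif4g1 had 979 to 1128 CPM in Ctrl and 870 to 1035 in iKO, a fold change of -0.15 ± 0.06 on the log2 scale (edgeR, adjusted p = 0.0441). This call was lost in 9 of the 12 fits without 1 library, those without any of the Ctrl libraries or without iKO 2, 4 or 5 (adjusted p up to 0.160). Eif4g3 (chromosome 4, 137993022 to 138208508), its paralog, had 209.8, 217.7, 210.2, 204.7, 196.7 and 218.2 CPM in Ctrl 1 to 6 and 218.3, 228.8, 253.7, 247.1, 220.9 and 231.6 CPM in iKO 1 to 6. The groups did not overlap, by a margin of less than 1 CPM. Its log2 fold change was 0.16 ± 0.05 (adjusted p = 0.0248), with no call without iKO 3 (0.0574), without iKO 4 (0.0515) or without iKO 2 and iKO 3 together (0.0903). Under the replicate block it had no call either (edgeR, adjusted p = 0.0603). With the leukocyte score as covariate Eif4g3 was at 0.18 ± 0.12 and Eif4g1 at -0.02 ± 0.12 (edgeR, adjusted p = 0.378 and 0.927). With the melanoma score they were at 0.06 ± 0.09 and -0.07 ± 0.10, again without a call. Eif4g2, which lacks the eIF4E-binding part and serves cap-independent initiation, had 1307 to 1509 CPM in Ctrl and 1345 to 1545 in iKO (-0.04 ± 0.06, adjusted p = 0.618).

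Of the helicase genes, Eif4a3, whose product is a core part of the exon junction complex and not of the cap complex, had the strongest fall: 176 to 209.9 CPM in Ctrl against 138 to 167 in iKO, without overlap (-0.29 ± 0.06, edgeR, adjusted p = 0.00218). Eif4h, the eIF4A cofactor, ran from 461 to 517 CPM in Ctrl and from 392 to 448 in iKO, also without overlap (-0.22 ± 0.05, adjusted p = 0.00334). Eif4a1, the main helicase, had 911 to 1034 CPM in Ctrl and 827 to 915 in iKO (-0.14 ± 0.05, adjusted p = 0.0362), a call lost without Ctrl 2, 3, 4 or 5 or iKO 2, 4 or 5 (adjusted p up to 0.118). The processed pseudogene Eif4a-ps4 had 152 CPM in Ctrl and 140 in iKO on average, and reads may be shared between it and Eif4a1. Eif4a2, the paralog that is common in slowly dividing cells, had 251 to 297 CPM in Ctrl and 238 to 323 in iKO (-0.02 ± 0.07, adjusted p = 0.844). Eif4b changed by -0.15 ± 0.05 (adjusted p = 0.0299), with no call without Ctrl 2, 3, 4 or 5 or iKO 2 or 4 (adjusted p up to 0.105).

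The balance between paralogs was then measured within each library, as a ratio of counts per kilobase, which does not depend on how libraries are scaled. Of 8 ratios, 3 differed between the groups (exact two-sided permutation test over 924 assignments, Benjamini-Hochberg over the 8). The members and ratios were chosen with results of these data known, so these tests describe the same shifts in another form. The ratio of Eif4e3 to Eif4e was 0.492, 0.553, 0.566, 0.543, 0.651 and 0.526 in Ctrl 1 to 6 and 0.763, 0.837, 0.676, 0.753, 0.984 and 0.723 in iKO 1 to 6. Every iKO library lay above every Ctrl library, a log2 difference of 0.50 ± 0.10 (SE, n = 6 a group; exact p = 0.00216, the smallest the test can give, adjusted p = 0.00866).

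The ratio of Eif4g3 to Eif4g1 ran from 0.123 to 0.138 in Ctrl (median 0.134) and from 0.151 to 0.188 in iKO (median 0.163). These groups did not overlap either, with a log2 difference of 0.31 ± 0.05 (exact permutation p = 0.00216, adjusted p = 0.00866). Eif4g2 to Eif4g1 ran from 0.936 to 1.06 in Ctrl and from 1.04 to 1.14 in iKO, a log2 difference of 0.12 ± 0.03 with overlap (exact permutation p = 0.00433, adjusted p = 0.0115). Without iKO 2 and iKO 3, its log2 difference was 0.13 and the adjusted p 0.0508. The ratios Eif4a2 to Eif4a1 (log2 difference 0.12 ± 0.09), Eif4e2 to Eif4e (0.10 ± 0.07), Eif4ebp2 to Eif4ebp1 (-0.03 ± 0.12), Eif5a2 to Eif5a (0.11 ± 0.12) and Eif1b to Eif1 (0.04 ± 0.09) did not pass, with adjusted exact permutation p of 0.332, 0.332, 0.803, 0.476 and 0.730.

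**Figure D3:**
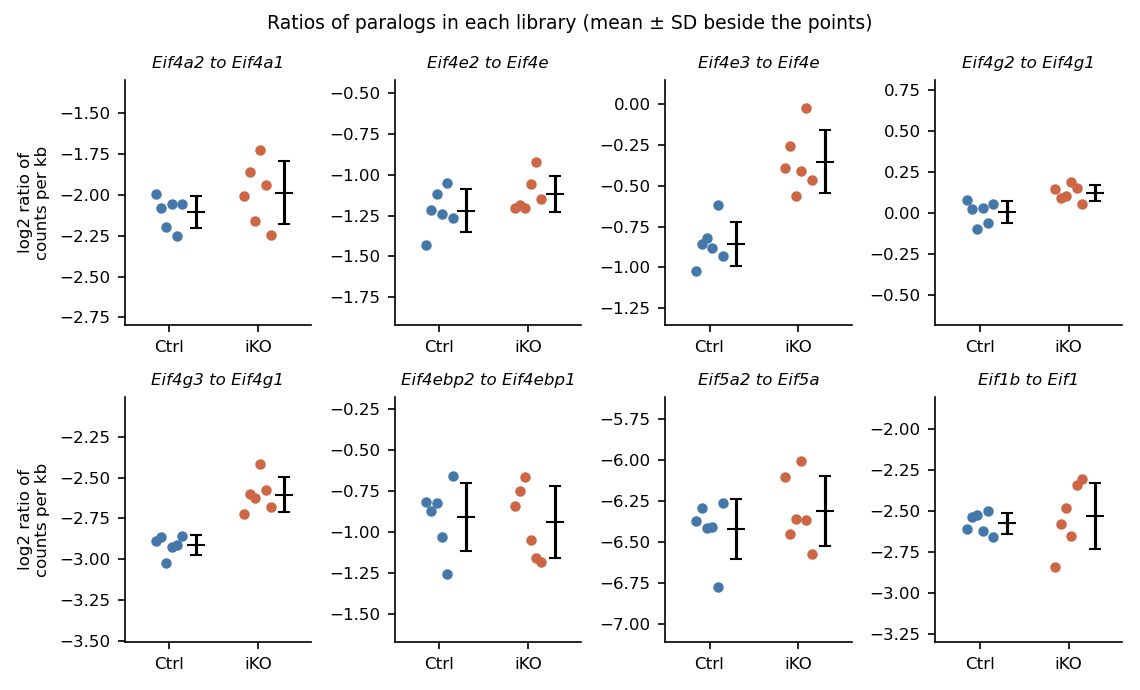
Log2 ratio of counts per kilobase (vertical axis, each panel spans the same height) of 8 pairs of paralogs in the 6 Ctrl (blue) and 6 iKO (orange) libraries, with mean ± SD in black. The groups do not overlap for Eif4e3 to Eif4e and for Eif4g3 to Eif4g1, and they overlap in the other panels.

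The eIF4E-binding repressors lock eIF4E away from eIF4G until mTORC1 phosphorylates them. Eif4ebp2 had 239 to 292 CPM in Ctrl and 216 to 258 in iKO (-0.20 ± 0.07, edgeR, adjusted p = 0.0213), a call lost without Ctrl 1, 2 or 3 (adjusted p up to 0.0671). With the leukocyte score as covariate its value was 0.11 ± 0.12. Eif4ebp1, the most abundant of the repressors per length, had 174 to 217 CPM in Ctrl and 144 to 212 in iKO (-0.16 ± 0.09, adjusted p = 0.141). It was called in 1 of the 12 fits without 1 library, that without iKO 6 (edgeR, adjusted p = 0.0289). Eif4enif1, the transporter that carries eIF4E into the nucleus, changed by -0.07 ± 0.05 with no call.

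Of the 4 genes of the last steps 3 fell. Eif5a (chromosome 11, 69916714 to 69921958) encodes a hypusine-bearing factor now known chiefly for helping the ribosome through difficult peptide bonds, and it had the highest per-length level of all members. It had 1158, 1114, 1181, 1237, 1348 and 1145 CPM in Ctrl 1 to 6 and 969, 946, 985, 777, 893 and 988 CPM in iKO 1 to 6. The groups did not overlap, with iKO 4 lowest and Ctrl 5 highest, and the log2 fold change was -0.37 ± 0.07 (edgeR, adjusted p = 0.000826). Eif5b, the GTPase that joins the subunits, ran from 283 to 360 CPM in Ctrl and from 237 to 294 in iKO (-0.30 ± 0.08, adjusted p = 0.00511), with 16.8% of its exon bases overlapping Rev1. Eif5a2, the scarce paralog of Eif5a, went from a median of 29.8 to 24.1 CPM (-0.26 ± 0.08, adjusted p = 0.0196), with no call without Ctrl 2, 3 or 4 (adjusted p up to 0.0642), and had a value of 0.11 ± 0.15 with the leukocyte score as covariate. Eif6, which keeps the subunits apart, had 134 to 164 CPM in Ctrl and 114 to 166 in iKO (-0.05 ± 0.08, adjusted p = 0.650).

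Upstream of eIF2, 3 of the 6 tested genes of the eIF2 alpha kinases and phosphatase subunits rose and 1 fell, where 25.0% of all tested genes rose and 21.4% fell. Whether this list differs from the initiation factors was not tested. Eif2ak2, the double-stranded RNA sensor PKR and an interferon-induced gene, ran from 51.6 to 65.2 CPM in Ctrl and from 118 to 152 in iKO, without overlap, a fold change of 1.22 ± 0.07 on the log2 scale (edgeR, adjusted p = 5.29e-08). Eif2ak3 (PERK, the kinase of endoplasmic reticulum stress) ran from 65.9 to 75.0 CPM in Ctrl and from 46.9 to 69.7 in iKO (-0.43 ± 0.10, adjusted p = 0.00260), and its value was 0.03 with the leukocyte score as covariate. Eif2ak4 (GCN2, the sensor of amino acid shortage) changed by 0.16 ± 0.06 (adjusted p = 0.0287), and Eif2ak1, the haem-regulated kinase, by 0.07 ± 0.06 with no call. Ppp1r15a, the stress-induced phosphatase subunit, changed by 0.28 ± 0.10 (adjusted p = 0.0272), with no call without Ctrl 6 (0.0522), iKO 1 (0.0525) or iKO 4 (0.0611).

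Of 13 genes of mTORC1 and MNK signalling, the main positive input to eIF4E, 5 rose and 2 fell. Of all tested genes 25.0% rose and 21.4% fell, and a difference from these shares was not tested. Mtor, the kinase itself, ran from 45.4 to 60.5 CPM in Ctrl and from 64.8 to 78.0 in iKO, without overlap (0.45 ± 0.08, edgeR, adjusted p = 0.000441). Mknk1, a kinase that phosphorylates eIF4E, went from a median of 18.3 to 28.5 CPM (0.55 ± 0.11, adjusted p = 0.00112), and its value was 0.37 with the leukocyte score and 0.19 with the melanoma score as covariate, with no call in either (adjusted p = 0.387 and 0.540). Rheb, the GTPase that activates mTORC1, ran from 129 to 144 CPM in Ctrl and from 111 to 117 in iKO (-0.26 ± 0.05, adjusted p = 0.000558), again without overlap. Rptor, a partner of the kinase, and Tsc1 and Tsc2, which restrain it, rose as well, and Akt1s1 fell.

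Of 15 initiation cofactors without an Eif name 11 fell and 2 rose. For this list and those that follow, 21.4% of all tested genes fell and 25.0% rose. Of protein-coding genes with a mean of at least 20 CPM, 32.8% fell and 26.3% rose. Among the cofactors that fell were the poly(A)-binding protein gene Pabpc4 (-0.35 ± 0.05, edgeR, adjusted p = 0.000117) and its partners Paip1 (-0.34 ± 0.06, adjusted p = 0.000687) and Paip2b (-0.37 ± 0.07, adjusted p = 0.00119). With the leukocyte score as covariate Paip2b was at -0.06 (adjusted p = 0.821), and with the melanoma score at -0.08. The genes that rose were Larp1 and Cyfip1. Of 10 tested elongation factor genes 7 fell and none rose, and the guanine exchange subunits had the smallest p: Eef1g (-0.38 ± 0.07, adjusted p = 0.000509), Eef1d (-0.45 ± 0.08, adjusted p = 0.000694) and Eef1b2 (-0.43 ± 0.10, adjusted p = 0.00284). Of 5 termination and recycling genes 3 fell: Gspt1 (-0.28 ± 0.06, adjusted p = 0.00176, and -0.11 with the leukocyte score), Hbs1l (-0.17 ± 0.05, adjusted p = 0.00656) and Pelo (-0.49 ± 0.15, adjusted p = 0.0138, and 0.0502 without Ctrl 3). Of the 2 mitochondrial initiation factor genes, Mtif2 fell (-0.29 ± 0.07, adjusted p = 0.00269) and Mtif3 had no call (-0.26 ± 0.10, adjusted p = 0.0502). Of the 16 genes of the related lists chosen by smallest p, 6 kept their call and direction with the leukocyte score as covariate (edgeR; Eif2ak2, Mtor, Rheb, Eef1g, Eef1d and Eef1b2) and 1, Eif2ak2, with the melanoma score.

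**Figure D4:**
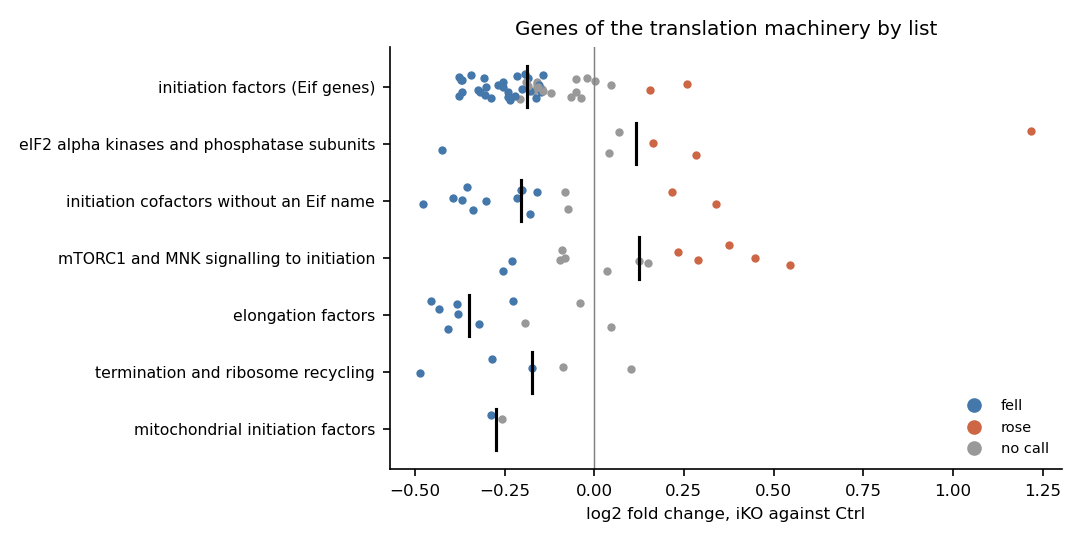
Log2 fold change of iKO against Ctrl (horizontal axis, 1 point a tested gene) for the initiation factors and 6 lists of related genes (vertical axis), with a bar at each list's median; blue points fell, orange points rose and grey points have no call. Medians are -0.19 for the initiation factors, -0.20 for their cofactors and -0.35 for elongation factors, against 0.12 for the eIF2 alpha kinases and phosphatase subunits and 0.13 for mTORC1 and MNK signalling.

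Promoter sequences were read for the members because many of them moved together. RefSeq (GRCm38.p6) gave windows from 250 bases before to 50 after a start for 38 of the 50 members, 50 windows in all. A set of 4 motifs was searched on both strands, the last excepted, and the motifs and the sequences shown were chosen with the values known: the E-box CACGTG, bound by the MYC, MITF and USF families; CCGGAAGT, bound by ETS factors; GAAANNGAAA, a core of interferon response elements; and a C at the start followed by at least 4 pyrimidines, as in mRNAs whose translation mTORC1 controls. The E-box was in 12 of 50 member windows (24.0%), against 7.15% of all 32851 windows and 10.5% of the 8229 windows of tested genes at or above 20 CPM. By gene it was in 10 of 38 members (26.3%) and in 12.6% of such genes. Of these 10 members 8 fell. Of all 48 tested members 28 fell (58.3%), but these include members without a window. The shares are therefore not of like sets, and no difference was tested. Among all genes at or above 20 CPM, however, 32.5% of those with an E-box fell, against 33.3% of all of them with a window. Windows with an E-box are shown for 4 members of the cap complex and for Eif5a, since these are the members at the cap and the most abundant member that carry it, with the first match in capitals.
Eif4g1 (chr16:20672631-20672720, plus strand, -96 to -7 from this start): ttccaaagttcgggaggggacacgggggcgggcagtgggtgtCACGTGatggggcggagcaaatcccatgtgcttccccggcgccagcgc
Eif4a1 (chr11:69672565-69672654, minus strand, -231 to -142): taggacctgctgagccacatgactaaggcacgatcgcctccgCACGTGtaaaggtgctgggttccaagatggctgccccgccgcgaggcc
Eif4e (chr3:138527018-138527107, plus strand, -250 to -161): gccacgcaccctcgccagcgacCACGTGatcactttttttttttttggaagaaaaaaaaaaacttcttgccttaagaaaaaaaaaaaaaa
Eif4h (chr5:134639458-134639547, minus strand, -138 to -49): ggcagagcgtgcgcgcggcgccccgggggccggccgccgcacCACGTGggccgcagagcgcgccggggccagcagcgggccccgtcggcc
Eif5a (chr11:69920761-69920850, minus strand, -220 to -131): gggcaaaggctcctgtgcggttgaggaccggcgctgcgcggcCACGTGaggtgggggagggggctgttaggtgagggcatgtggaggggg

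The other motifs were less common. CCGGAAGT was in 7 of 38 members (18.4%, against 11.0% of genes at or above 20 CPM), of which 4 fell. GAAANNGAAA was in 3 of 38 (7.89% against 4.01%), of which Eif2s1 and Eif3a fell and Eif2s3x had no call. Outside the members, Eif2ak2, the kinase gene with the rise of 1.22, had a copy just after its start, shown in capitals.
Eif2ak2 (chr17:78882543-78882632, minus strand, -60 to 30): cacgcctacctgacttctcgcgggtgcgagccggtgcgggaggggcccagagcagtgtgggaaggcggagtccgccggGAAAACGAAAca
A pyrimidine start was found in 2 of 38 members (5.26%, against 2.92%), Eif3f and Eif2s3x, neither of which passed the test, and the run of pyrimidines is in capitals.
Eif3f (chr7:108934385-108934444, plus strand, -30 to 30): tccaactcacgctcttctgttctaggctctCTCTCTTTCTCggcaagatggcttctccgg
Eif2s3x (chrX:94212622-94212681, minus strand, -30 to 30): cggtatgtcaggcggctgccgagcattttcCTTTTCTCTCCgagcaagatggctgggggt
Eif3f changed by -0.16 ± 0.06 (edgeR, adjusted p = 0.0501). A match is a description of these letters and not a bound site, and a start taken from RefSeq need not be the start used in these tumours.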

How the data were processed

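RNA was measured in 12 bulk libraries of sorted B16F10 tumours, 6 Ctrl and 6 iKO, grouped by the titles in the labels. The authors deposited a table of read counts per Ensembl gene, with no division by length or depth. Per the submitters' processing notes the build was mm10, while the aligner and counter were not given in the sources used here. Libraries were made from poly(A) RNA without keeping strand, per the labels' protocols, so overlapping genes on opposite strands cannot be told apart. All libraries share 1 batch label.

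Genes were filtered with edgeR 4.0.16 (filterByExpr, minimum count 10, minimum total 15), which kept 16164, normalized by TMM and tested with the quasi-likelihood test in R 4.3.3 (robust, no covariate). P-values were adjusted by Benjamini-Hochberg over all these genes, with a threshold of 0.05. The SE is the absolute log2 fold change over the square root of F, an approximation. Levels per length use the table's gene length. Ratios used counts plus 0.5 per kilobase and were tested in SciPy 1.17.1. DESeq2 1.42.0, limma voom (limma 3.58.1), other normalizations, no filter, single libraries left out, a replicate block and marker scores as covariates were the alternatives. The tests were checked on simulated counts. No same-group pair of libraries agreed within sampling noise (chi-square per degree of freedom 7.47 or more). Totals of 29.8 to 45.8 M counts limit precision mainly for Eif4e1b and Eif4ebp3.

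The members, gene lists and ratios were chosen with earlier results of these data known. Named genes were, in each role group, the most abundant member per length and up to 3 with the smallest p past the threshold in each direction, the members of the ratios, and for each related list up to 3 with the smallest p past the threshold. Eif1a, Eif2a, Eif2b4, Eif2b5, Eif2s3x, Eif3a, Eif3c, Eif3d, Eif3e, Eif3f, Eif3g, Eif3j2, Eif3m, Eif4b, Eif4enif1, Eif5, Eif6, Eif2ak1, Eif2ak4, Akt1s1, Rptor, Tsc1, Tsc2, Larp1, Cyfip1, Eif4a-ps4 and Xist were named after their values were seen. Promoter windows are those of RefSeq on GRCm38.p6, the assembly that mm10 names, for 38 of 50 members matched by symbol.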

Additional observations from a re-analysis of the deposited data

Results flagged for a closer look

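Of 74 sets of 6 values tested (the levels of named members and the ratios, in each group), 5 had a library that lay far from the other 5 of its group, where chance flags about 1 in 20. Ctrl 5 accounted for 4 of them. Eif3i was at 169 CPM in Ctrl 5, against 140 to 151 CPM in the other Ctrl libraries. Eif4a3 was at 209.9 CPM in Ctrl 5, against 176 to 184. Eif4g2 was at 1307 CPM in Ctrl 5, below the 1462 to 1509 of the others. The ratio of Eif5a2 to Eif5a was 0.00912 in Ctrl 5, against 0.0117 to 0.0130. Eif2d was at 65.1 CPM in Ctrl 1, against 59.3 to 61.2 in the other Ctrl libraries. The falls of Eif2d, Eif3i and Eif4a3 were called in each fit that left out 1 library (edgeR, highest adjusted p 0.00118, 0.00877 and 0.00696).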

How the results depend on the processing

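The 28 falls and 2 rises were the same genes with size factors of DESeq2 in edgeR and with limma voom, and DESeq2 and TMMwsp called 29 falls, the 28 among them. Leaving out 1 library gave 18 to 32 falls and 1 to 2 rises. In those fits 16.1% to 22.6% of all tested genes fell and 22.7% to 27.1% rose. The count of rises was 1 with library totals, under the replicate block, without iKO 2 and iKO 3 and with the leukocyte score, and 0 without a filter and with the melanoma score (edgeR; 1 and 0 members higher at an unadjusted p below 0.05). No other tool was run under those settings. Of all tested genes, 23.2% rose with library totals, 21.6% under the replicate block, 14.1% without a filter and 2.96% with the melanoma score. Falls numbered 11 with the leukocyte score and 0 with the melanoma score (6 at an unadjusted p below 0.05), and the median was -0.26 with the leukocyte score; the cause was not tested. Some values turned direction, none of them with a call under that setting. Eif4a2 ranged from -0.0752 to 0.0208 without 1 library, above 0 without Ctrl 4, iKO 3 or iKO 6, and was 0.0076 without Ctrl 5 and iKO 1. With the leukocyte score Eif4e3 was at -0.0342, Eif4ebp2 at 0.11, Eif4g2 at 0.15, Eif5a2 at 0.11 and Eif2ak3 at 0.031, and Eif4g2 was at 0.0321 with the melanoma score. Another 3 genes with a called fall also turned: Eif3a (0.03 with the leukocyte score), Eif3m (0.0002) and Eif4b (0.01, both with the melanoma score). The log2 difference of the paralog ratio Eif4ebp2 to Eif4ebp1 ranged from -0.102 to 0.0182 without 1 library, above 0 without Ctrl 6, iKO 5 or iKO 6, the paralog ratio Eif5a2 to Eif5a was at -0.0012 without Ctrl 5 and iKO 1, and the paralog ratio Eif1b to Eif1 ranged from -0.0031 (without iKO 6) to 0.1048. Eif4g2 to Eif4g1 (0.13) had an adjusted p of 0.0508 without iKO 2 and iKO 3.

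Same-numbered libraries correlated between -0.13 and 0.25 in their deviations. Whether the numbers pair them was not tested, and the main fit treated the libraries as unpaired. With the replicate block 20 members fell, all among the 28, and 1 rose, while 18.5% of all tested genes fell and 21.6% rose. The ratios of Eif4e3 to Eif4e (0.50), Eif4g3 to Eif4g1 (0.31) and Eif4g2 to Eif4g1 (0.12) had an adjusted p of 0.0833 in the paired sign-flip test, the smallest it gave. Of Ctrl and iKO libraries, Ctrl 1 and iKO 5 correlated best with their own number. Without TMM 33 members fell, and without a filter 35, where 23.3% and 12.9% of all tested genes fell.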
